A study of Rattus norvegicus with 16 samples.

Results

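The cytotoxic granule genes described here are 10 transcripts that rat killer lymphocytes use to store, deliver and switch on their killing proteins. They are perforin (Prf1), the granzymes Gzma, Gzmb, Gzmk and Gzmm, the granule membrane protein Nkg7, the activating receptors Ncr1 and Ncr3, and the transcription factors Tbx21 and Eomes. They were chosen by symbol, and all 10 were found among the 18031 genes listed for every library. Only Gzmb had more than 1 entry under its symbol, and the entry with the higher total (8357.5 against 3234.6 estimated counts) was used. The blood came from 16 adult male Sprague-Dawley rats aged 85 to 90 days, an outbred stock without any named mutation or transgene. Every animal received 4 saline injections of 1 ml/kg spaced 2 h apart, without food or water during that time, and was killed 3 h after the final injection. Blood drawn by needle from the heart was frozen, depleted of globin mRNA and sequenced from its polyadenylated RNA. All 16 libraries were saline controls, so no treated group was compared, and the questions were how far the members differ between control animals, which of them vary together, and whether they follow the abundance of other blood cell transcripts.

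Natural killer (NK) cells and CD8+ T cells kill a target by releasing granules at the point of contact. Perforin opens the target membrane, and the granzymes, which are serine proteases, pass through and cleave proteins inside the target. Granzymes A and K are tryptases that cut after basic residues, granzyme B cuts after aspartate and activates caspases, and granzyme M prefers methionine or leucine. Ncr1 (NKp46) and Ncr3 (NKp30) are receptors that trigger release, and Ncr3 is a pseudogene in the laboratory mouse but functional in the rat. Tbx21 (T-bet) and Eomes are related T-box transcription factors that direct NK and cytotoxic T cell maturation.

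The libraries held 21466776 to 31189549 estimated counts, and 3 counts, taken as the detection floor, equalled 0.0962 to 0.1398 CPM. They carried 6 run codes, which are codes in the file names and are neither dates nor treatments. Code A belonged to controls 1, 2 and 3, code B to controls 4, 5, 7, 8 and 10, code C to 6 and 9, and code D to 11, 12, 13 and 14, while E and F marked the single controls 15 and 16. Marker sums bore out the label of blood, with all 8 T-cell and all 6 NK-cell markers of the lists present in every library. The granulocyte marker sum ranged 31.87-fold and the mast cell sum 119.1-fold (highest in control 11). Single libraries stood apart in transcripts of other tissues, with a liver marker sum of 409080.8 normalized counts in control 2 against a median of 38.18, and a thymus sum of 5769.8 in control 12 against a median of 33.4. Control 8 held the most granulocyte and the least T-cell marker RNA. Results that rest on controls 2, 8 and 12 are therefore also given without them. In bulk blood, fewer cells of a type and less RNA per cell cannot be told apart.

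Sequences just upstream of the starts of some members are shown first. Promoters were taken from RefSeq on the rat build GRCr8, which is not the build of the counts, and 9 of the 10 members had one in the table. The 6 shown belong to the genes whose proteins fill the granule, the 4 granzymes, Nkg7 and Prf1. They are the 250 bases before the annotated start, 5′ to 3′ on the gene's strand. Capitals mark a T-box hexamer (TCACAC, or GTGTGA on the other strand), of the kind bound by Tbx21 and Eomes, or a Runx core (TGTGGT, or ACCACA on the other strand), of the kind bound by Runx3. Gzma (chr2:46485697-46485946, minus strand) and Gzmk (chr2:46582016-46582265, minus strand) are neighbouring protein-coding genes. Gzmb lies at chr15:34462470-34462719 on the minus strand, Nkg7 at chr1:102981247-102981496 on the plus strand, Gzmm at chr7:10667257-10667506 on the minus strand and Prf1 at chr20:29788790-29789039 on the plus strand.
Gzma: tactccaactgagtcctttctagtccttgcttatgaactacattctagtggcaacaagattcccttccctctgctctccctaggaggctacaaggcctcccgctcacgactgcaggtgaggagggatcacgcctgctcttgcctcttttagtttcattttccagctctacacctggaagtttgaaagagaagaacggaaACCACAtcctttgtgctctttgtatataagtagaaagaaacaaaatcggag
Gzmk: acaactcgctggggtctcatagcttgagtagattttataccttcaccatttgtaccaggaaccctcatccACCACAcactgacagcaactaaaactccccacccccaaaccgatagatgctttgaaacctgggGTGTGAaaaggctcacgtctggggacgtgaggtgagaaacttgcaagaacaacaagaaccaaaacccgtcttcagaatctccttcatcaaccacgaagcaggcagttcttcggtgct
Gzmb: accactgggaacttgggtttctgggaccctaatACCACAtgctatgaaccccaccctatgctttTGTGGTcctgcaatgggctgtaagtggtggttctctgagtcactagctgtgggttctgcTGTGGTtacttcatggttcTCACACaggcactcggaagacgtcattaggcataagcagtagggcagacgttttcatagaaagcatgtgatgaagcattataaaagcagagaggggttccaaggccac
Nkg7: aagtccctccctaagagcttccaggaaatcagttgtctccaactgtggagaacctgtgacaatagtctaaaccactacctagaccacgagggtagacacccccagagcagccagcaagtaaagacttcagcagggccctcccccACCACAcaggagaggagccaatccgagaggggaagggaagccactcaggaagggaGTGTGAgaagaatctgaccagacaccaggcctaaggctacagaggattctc
Gzmm: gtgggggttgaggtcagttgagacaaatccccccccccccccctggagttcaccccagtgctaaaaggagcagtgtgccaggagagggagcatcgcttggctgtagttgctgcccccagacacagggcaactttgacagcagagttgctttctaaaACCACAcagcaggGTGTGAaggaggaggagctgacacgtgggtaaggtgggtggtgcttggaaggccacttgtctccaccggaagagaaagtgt
Prf1: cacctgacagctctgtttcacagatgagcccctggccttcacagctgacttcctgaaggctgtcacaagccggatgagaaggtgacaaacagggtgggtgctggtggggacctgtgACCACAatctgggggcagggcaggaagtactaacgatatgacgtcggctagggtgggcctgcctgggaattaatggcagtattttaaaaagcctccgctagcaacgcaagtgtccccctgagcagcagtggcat

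A T-box hexamer was present in 4 of the 9 promoters, those of Gzmb (first base at -108 from the start), Gzmk (-117), Gzmm (-81) and Nkg7 (-51). Among all 33469 promoters of the table, 11.6% held this hexamer within the same length. A Runx core was present in 8 of the 9, in Tbx21 alone not, against 14.5% of all promoters, and the Gzmb promoter held 3 of them (-217, -186 and -127). No T-box hexamer overlapped a Runx core. The ETS core CAGGAAG, also searched on both strands, was found in 2 of the 9, Prf1 and Nkg7, against 10.2% of all promoters. These matches describe letters in a window and were related neither to a binding measurement nor to the members' levels.

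Transcript levels of Prf1 and Gzmk differed several-fold between the lowest and highest control animals. Levels are given as normalized counts, which are the rounded counts divided by a DESeq2 size factor. They were not divided by transcript length, so they compare libraries and not genes. Prf1 (ENSRNOG00000000562) averaged 2025.2 ± 681.1 (SD, n = 16), with 976.9 in control 16 as the lowest, a median of 1983.8 and 4130.9 in control 14 as the highest. The other 14 libraries lay between 1498 and 2584.8, so both extremes stood outside a narrow band. Gzmk (ENSRNOG00000010661) averaged 1475.2 ± 503.4 and ran from 494.1 over a median of 1405.1 to 2504.8, again from control 16 to control 14. Among genes with a mean within a factor of 2, the coefficient of variation was above that of 66.5% for Prf1 and of 70.5% for Gzmk.

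Gzma had the widest relative spread of the members with DESeq2 or TMM scaling, while Ncr3 did (50.7% against 45.8%) with total count scaling. Gzma (ENSRNOG00000010603) averaged 897.8 ± 444.2 (SD, n = 16), from 201.4 in control 16 over a median of 747.6 to 1940.4 in control 14, a 9.64-fold range. Its coefficient of variation of 49.5% was above that of 89.3% of genes with a mean within a factor of 2. Gzmb (ENSRNOG00000049976) averaged 505.1 ± 227.6 and ran from 132.6 over 478.1 to 1042.7, a 7.87-fold range between the same animals. Its coefficient of variation, 45.1%, exceeded that of 88.2% of genes of like mean. Entries for near-identical genes are listed beside it, so how the estimate divided reads among these copies is uncertain.

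Gzmm and Nkg7 varied less. Gzmm (ENSRNOG00000030530), the granzyme with the narrowest range, averaged 1152.9 ± 351.4 (SD, n = 16) and ran from 606.6 in control 16 over 1159.1 to 1704.2 in control 14, a 2.81-fold range. Nkg7 (ENSRNOG00000017749), a membrane protein of the granule needed for efficient release, averaged 1158.0 ± 403.2 and ran from 420.3 over 1043.0 to 1824.3, again from control 16 to control 14. For Gzmm and Nkg7 the highest library became control 3 when counts were divided by the library total, and for Gzmm also with TMM scaling. For both, control 16 remained the lowest under each scaling tried.

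The receptors went different ways. Ncr1 (ENSRNOG00000018458) was the steadiest member, at 497.5 ± 120.5 (SD, n = 16) with a coefficient of variation of 24.2%, and ran from 265.2 in control 16 over a median of 515.6 to 653.9 in control 10. The highest library for Ncr1 was control 7 with TMM scaling, control 1 with total count scaling and control 13 with total counts outside the globin genes. Control 14, the highest library for all 9 other members with DESeq2 size factors, held 511.4 normalized counts of Ncr1, close to the median. Ncr3 (ENSRNOG00000000854) was scarce, with 10 to 60 counts per library, and averaged 29.5 ± 14.4 normalized counts. It was lowest in control 4 (10.3), had a median of 27.95, and was highest in control 14 (58.0). At such counts part of the spread is counting error, and its coefficient of variation of 48.7% was above that of 60.9% of genes of like mean.

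Both T-box factors were highest in control 14. Tbx21 (ENSRNOG00000009427) averaged 454.9 ± 162.0 (SD, n = 16) and ran from 192.6 in control 16 over 443.6 to 891.6, with a coefficient of variation above that of 80.1% of genes of like mean. Eomes (ENSRNOG00000042140) averaged 100.9 ± 38.9 and ran from 47.8 in control 12 over 96.9 to 204.1. Control 16, with 60.04, was not its lowest library with this scaling. With total count scaling, and without controls 2, 8 and 12, control 16 was the lowest for Eomes. With total counts outside the globin genes, control 5 was. The markers of other cells in these extreme animals were as follows. In control 14 the NK marker sum was the 2nd highest, the granulocyte sum the 3rd highest and the T-cell sum the 9th highest of 16. The NK sum includes Ncr1, itself a member. On the killer-cell lectin level described below, which leaves Ncr1 out, control 14 stood lower, at 8.40. Controls 10 (8.99), 2 (8.70), 7 (8.54), 3 (8.45) and 9 (8.43) were above it. In control 16 the NK sum, at 1293.3 normalized counts against a median of 2805.4, was the lowest, while its T-cell sum was the 5th highest. Their part in the members' levels was not tested.

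**Figure D1:**
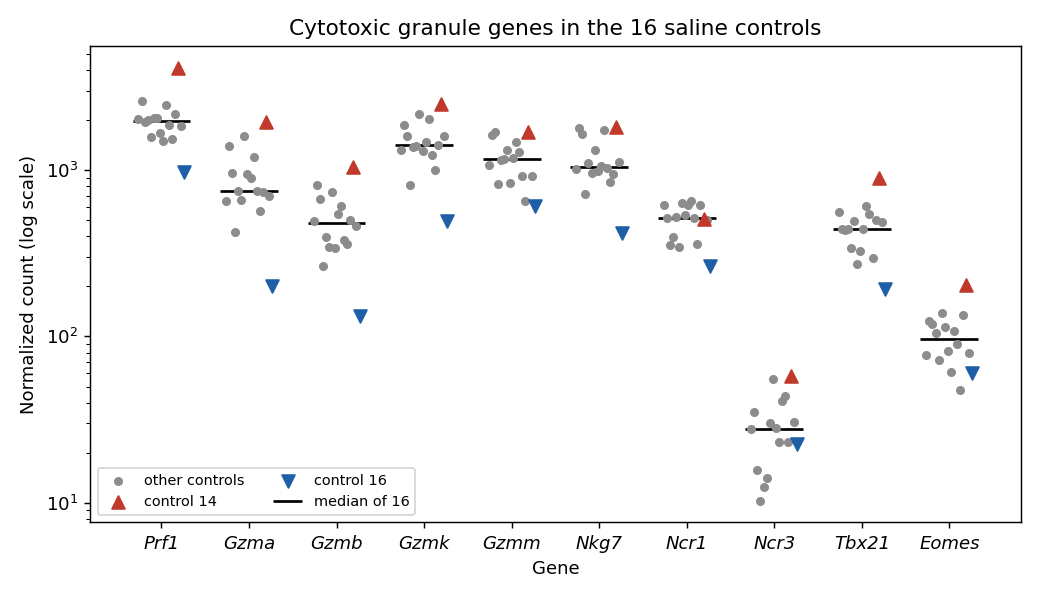
Normalized counts (log scale) of the 10 members, 1 point per library (n = 16), with the median as a bar, control 14 as an upward triangle and control 16 as a downward triangle. Control 14 was highest for 9 members and control 16 lowest for 8, the exceptions being Ncr1 at the top and Ncr3 and Eomes at the bottom.

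The members did not vary as a single unit. Over the 45 pairs of members, Pearson's r of the log2 levels (pseudocount 1) had a median of 0.62 and ran from -0.02 (Ncr3 with Eomes) to 0.96 (Gzma with Gzmk). An r of at least 0.5 was seen for 31 pairs, 68.9%, against 11.9% of all pairs among 9631 genes with a mean of at least 50 normalized counts. Control 16 carried part of this, since the median fell to 0.48 without it. Without controls 14 and 16 it was 0.34, and 28.9% of the member pairs reached 0.5 against 13.4% of all pairs. Centred within runs, the median was 0.51. All these correlations share the same 16 libraries and their size factors, and they are descriptions.

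The closest group was formed by Gzma, Gzmb, Gzmk and Nkg7. Their 6 pairs had r between 0.93 and 0.96 and Spearman's rho between 0.82 and 0.91, and r stayed between 0.83 and 0.91 without controls 14 and 16 and between 0.89 and 0.96 after centring within runs. Gzma and Gzmk, the pair with the highest r, are neighbours on the chromosome, while Gzmb and Nkg7 lie on other chromosomes. Gzmm was nearest to Nkg7 (r = 0.87, rho = 0.89), and r was 0.89 without controls 13 and 16, the libraries farthest from its median.

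Over all 16 libraries, Prf1 had its highest r among the members with the T-box factors. It correlated with Eomes at r = 0.84 (rho = 0.88) and with Tbx21 at r = 0.82 (rho = 0.66). Without controls 14 and 16, r was 0.80 for Eomes, 0.54 for Nkg7, 0.48 for Tbx21, 0.47 for Gzmb, 0.46 for Gzmk and 0.39 for Gzma, so that Eomes stayed first and Tbx21 did not stay second. Against all 9630 other genes with a mean of at least 50, 2-sided permutation tests with 100000 permutations and Benjamini-Hochberg adjustment called none as related to Prf1 (0% of the genes), and 179 genes had an unadjusted p under 0.05. Eomes had a permutation p of 7e-05 and an adjusted p of 0.34, Tbx21 an adjusted p of 0.53 and Gzmb one of 0.53. Ncr3, with a mean under 50, was not among the genes tested.

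Tbx21 and Eomes were themselves only moderately alike (r = 0.63, and 0.34 without controls 14 and 16). Tbx21 correlated with Gzma at r = 0.54, which became -0.18 without controls 14 and 16, so this relation rests on those animals. Ncr1 had r between 0.55 and 0.67 with the group of Gzma, Gzmb, Gzmk and Nkg7, and 0.19 with Eomes. Without control 16 these became 0.25 to 0.45 and -0.01, so the size of the Ncr1 correlations rests in part on that library. The 9 pairs that include Ncr3 had a median r of 0.24.

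**Figure D2:**
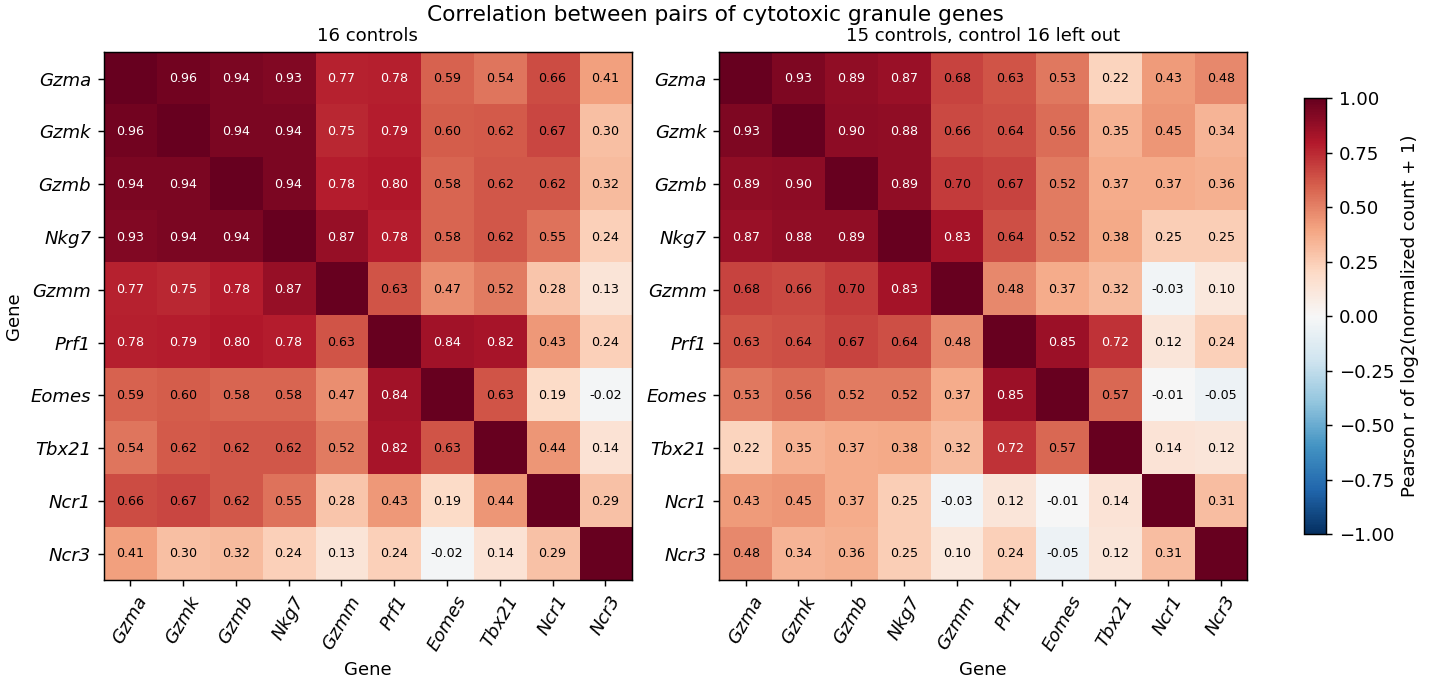
Pearson's r of log2(normalized count + 1) for each pair of members over 16 controls (left) and over 15 controls without control 16 (right), coloured from -1 to 1. Gzma, Gzmk, Gzmb and Nkg7 form a block in both panels, Prf1 stays close to Eomes (0.84 and 0.85), and Ncr3 is pale throughout.

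The 3 genes most like each member, by Pearson's r among the 9630, are given as a description. The 3 nearest to Gzmk were Gzma, the killer-cell lectin receptor Klrb1a (r = 0.94) and Gzmb. For Nkg7 they were Gzmk, Gzmb and the lectin receptor Klrd1 (r = 0.94), and for Gzma they were Gzmk, Gzmb and Klrb1a (r = 0.93). For Gzmb they were Gzmk, Nkg7 and Gzma. Gzmm was followed by Nkg7, the chemokine Ccl5 (r = 0.82) and Serpinb9, an inhibitor of granzyme B (r = 0.80).

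The list of Prf1 held the integrin chain Itgad (r = 0.86), Eomes and Prr5 (r = 0.84). Eomes was followed by Prf1, the interleukin 2 receptor chain Il2rb (r = 0.79) and 5031425E22Rik (r = 0.75). Tbx21 was followed by the transcription factor Runx3 (r = 0.86), the kinase gene Mark1 (r = 0.85) and Adamts14 (r = 0.85), which is the protein-coding neighbour of Prf1 on chromosome 20. For Ncr1 the nearest genes were the cytokine Il18 (r = 0.80), Fam114a1 (r = 0.78) and Spg20 (r = 0.77). Ncr3 shared none of these and was nearest to Nfkbia, the inhibitor of NF-kB (r = 0.86), the chemokine Cxcl10 (r = 0.85) and Ddah2 (r = 0.84).

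To ask whether the members follow transcripts of NK-cell lectin receptors, a killer-cell lectin level was formed. This level was the mean log2 level of Klrb1a, Klrd1, Klre1, Klri1 and Klri2, lectin-like receptors of NK cells. It ran from 6.72 in control 16 to 8.99 in control 10. The slope of each gene on this level, in log2 units per log2 unit, was tested in 1 edgeR quasi-likelihood fit of 10920 genes. A slope with an adjusted p under 0.05 was found for 9 genes, 0.0824% of those tested, all with positive slopes. Of these, 5 were the level's own genes, and outside them 4 genes (0.0366%) were called. These were Nkg7, Gzma, Gzmk and the inhibitory lectin receptor Klrc1. Ncr1, the remaining NK-cell marker of the lists, was not called (edgeR adjusted p = 0.46). Whether the lectin level tracks the amount of NK-cell RNA as a whole was not tested.

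Nkg7 rose with the lectin level with a slope of 0.87 ± 0.15 (SE, n = 16, edgeR adjusted p = 0.0209). Gzma rose with a slope of 1.23 ± 0.21 (edgeR adjusted p = 0.024) and Gzmk with one of 0.89 ± 0.16 (edgeR adjusted p = 0.0327). Gzmb had a slope of 1.08 ± 0.21 and missed the threshold (edgeR adjusted p = 0.0718). The slopes of Gzmm (0.55 ± 0.17), Prf1 (0.50 ± 0.19), Eomes (0.46 ± 0.24), Ncr1 (0.45 ± 0.15), Tbx21 (0.37 ± 0.24) and Ncr3 (0.10 ± 0.34) had adjusted p-values of 0.44 or more. All 10 slopes were positive over the 16 libraries, though not without control 16, with a median of 0.53 against 0.04 over all genes tested. Differences between the members' slopes were not tested.

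These calls were near the threshold. With the run code as a factor, no gene was called by edgeR (766 had an unadjusted p under 0.05). The slopes were then 0.82 ± 0.18 for Nkg7, 1.17 ± 0.28 for Gzma and 0.84 ± 0.21 for Gzmk, each with an adjusted p of 0.667. Control 16 is the only library of its run. Without it Nkg7, Gzma and Gzmk had slopes of 0.75, 1.05 and 0.72, each with an adjusted p of 0.274, and no member was called. The slopes of Prf1, Ncr1 and Tbx21 were then 0.31, 0.30 and 0.07, and that of Ncr3 turned to -0.04. No member was called either without control 2, 4 or 12, without controls 2, 8 and 12 together, or without controls 14 and 16. DESeq2 called 4 members, the fourth being Gzmb, and dividing by the total count, which moved the median slope of all genes from 0.04 to 0.15, left Gzmb as the only member called. With the T-cell receptor level added to the fit, Nkg7, Gzma and Gzmk were called again.

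**Figure D3:**
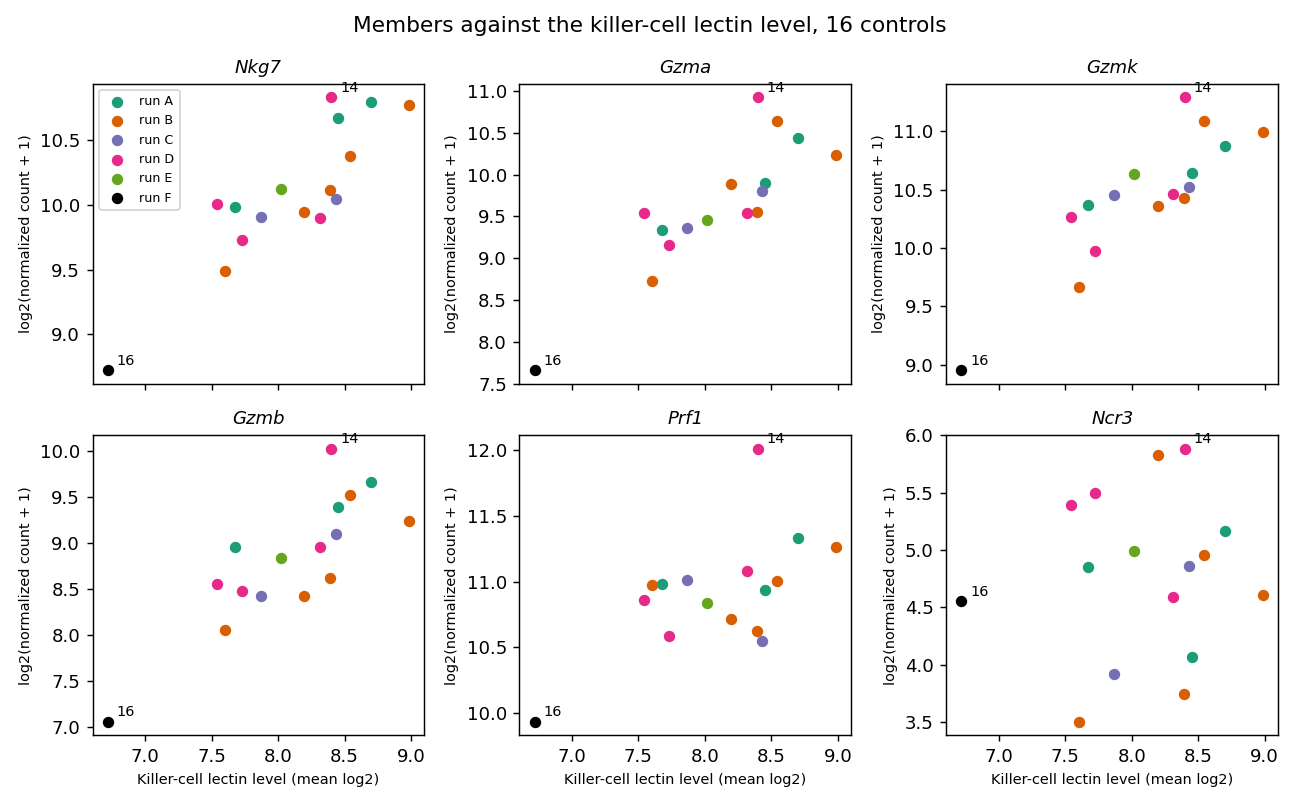
Log2 levels of 6 members against the killer-cell lectin level, 1 point per library coloured by run code, with controls 14 and 16 numbered. The called members Nkg7, Gzma and Gzmk climb with the lectin level, Gzmb had a slope of 1.08 that missed the threshold, control 16 (6.72) stands apart at the lower left, and Ncr3 had a slope of 0.10.

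No member was called on the T-cell receptor level. The T-cell receptor level, the mean log2 level of the receptor chains Cd3d, Cd3e and Cd3g, had a slope with an adjusted p under 0.05 for 1450 genes (13.3%), of which 613 were positive (5.61%) and 837 negative (7.66%). None of the 10 members was among them, and none had an unadjusted p under 0.05. Their slopes ran from -0.39 ± 0.25 for Ncr1 to 0.34 ± 0.31 for Gzmm, with a median of -0.07 against 0.02 over all genes tested. In the same fit the CD8 chains, carried by cytotoxic T cells among others, rose with the level, Cd8a with a slope of 0.92 ± 0.16 (edgeR adjusted p = 0.0104) and Cd8b with 1.13 ± 0.16 (edgeR adjusted p = 0.00181). Of the other T-cell markers outside the level, Cd5 was called (0.62 ± 0.19, edgeR adjusted p = 0.0398). Cd6 (0.545 ± 0.27, edgeR adjusted p = 0.175) and Cd4 (0.33 ± 0.29, edgeR adjusted p = 0.471) were not, so the level does not stand for all T-cell RNA. On the lectin level, Cd8a had a slope of 0.07 ± 0.18 and Cd8b one of 0.04 ± 0.23. Control 12, the library with the high thymus sum, had the highest T-cell receptor level (11.47) and the most Cd8a and Cd8b. The thymus marker Dntt had a slope of 4.37 ± 0.62 on the T-cell receptor level. The part of thymus RNA in these slopes was not tested. The Gzmm slope ran from 0.15 without control 3 to 0.60 without control 12. The standard errors of the members' slopes on the T-cell level, up to 0.50 for Gzma, leave room for moderate slopes in either direction. Dividing by the total count moved the median slope of all genes from 0.02 to 0.42 and the calls to 4244 positive and 36 negative, still without a member. Without controls 2, 8 and 12 edgeR called no gene at all on the T-cell level.

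The granulocyte level was formed in the same way from S100a8, S100a9, Csf3r and Cxcr2. It had an adjusted p under 0.05 for 3079 genes (28.2%), of which 1745 (16.0%) rose and 1334 (12.2%) fell. Ncr3 was the only member called, with a slope of 0.33 ± 0.11 (SE, n = 16, edgeR adjusted p = 0.0326), and 1 of 10 members is no larger a share than the background. Ncr1 had a slope of 0.17 ± 0.06 and missed the threshold (edgeR adjusted p = 0.0564). It passed with DESeq2 (DESeq2 adjusted p = 0.0349), without controls 2, 8 and 12 (edgeR adjusted p = 0.0473), without controls 14 and 16 (edgeR adjusted p = 0.0433) and without control 2, 10 or 16, with slopes of 0.15 to 0.22. With total count scaling the calls were 1062 positive and 62 negative. The other 8 members had slopes from -0.06 for Gzmm to 0.16 for Gzma, with adjusted p-values of 0.363 or more. The call of Ncr3 was lost without control 3, 4, 6, 8 or 14 (slopes of 0.28 to 0.31), with total count scaling (0.33, edgeR adjusted p = 0.112), without a low-count filter (0.33, edgeR adjusted p = 0.0544) and without controls 14 and 16 (0.27, edgeR adjusted p = 0.0934).

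**Figure D4:**
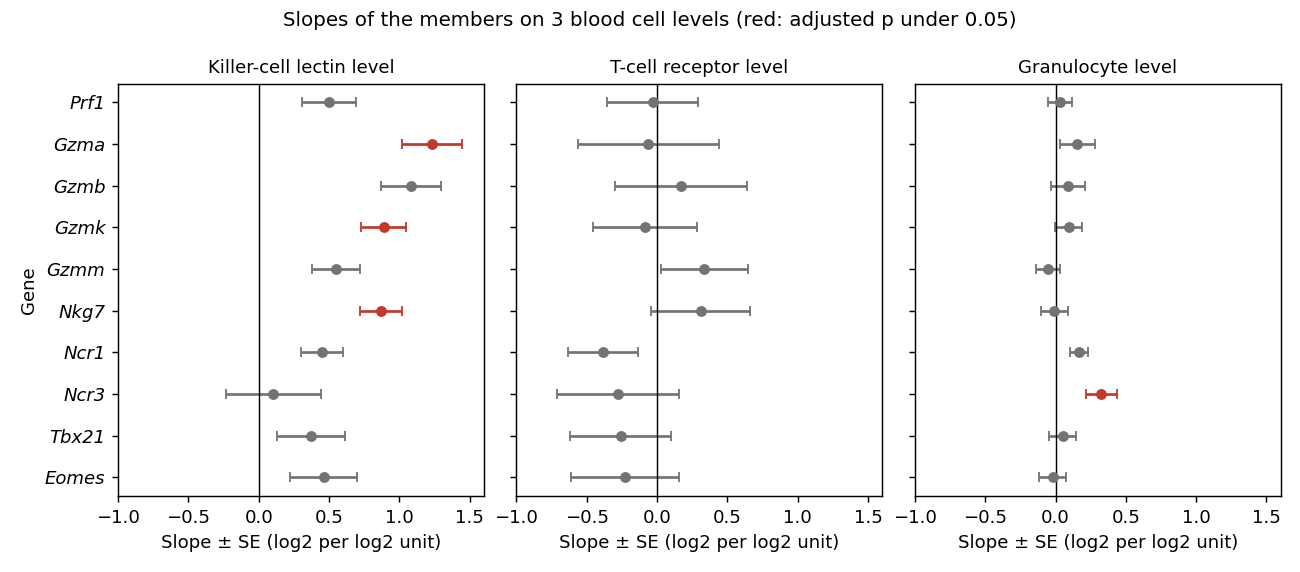
Slopes with standard errors of the 10 members on the killer-cell lectin, T-cell receptor and granulocyte levels, in log2 units per log2 unit over 16 controls, red where the edgeR adjusted p was under 0.05. Gzma, Gzmk and Nkg7 are red on the lectin level, no member is red on the T-cell level, and Ncr3 alone is red on the granulocyte level.

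The make-up of the granzyme counts was more even than their amounts. As a share of the counts of Gzma, Gzmb, Gzmk and Gzmm within a library, which does not depend on scaling between libraries, Gzmk took 36.8% ± 3.16 (SD, n = 16), Gzmm 29.7% ± 5.84, Gzma 21.4% ± 3.77 and Gzmb 12.2% ± 1.87. Longer transcripts give more counts, so the shares are compared between animals only. The Gzmk share was lowest in control 3 (32.4%, 95% Wilson interval 31.4% to 33.5%) and highest in control 15 (43.3%, 41.8% to 44.9%). Its coefficient of variation of 8.59% compares with 34.1% for the normalized count of Gzmk. The contrast was smaller for the others, 17.7% against 49.5% for Gzma, 15.3% against 45.1% for Gzmb and 19.7% against 30.5% for Gzmm. Because each granzyme is part of the sum, some of this contrast is built in.

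In control 16, where all 4 granzymes were at their lowest, Gzmm made up 42.3% of the sum, its highest share (95% Wilson interval 39.5% to 45.2%), while Gzma took 14.0% (12.2% to 16.2%) and Gzmb 9.24% (7.7% to 11.1%), their lowest. Its Gzmk share of 34.4% was within the range of the other libraries. The lowest Gzmm share was 19.7% in control 13 (18.35% to 21.01%). Eomes took 18.5% ± 4.76 (SD, n = 16) of the counts of Eomes and Tbx21, from 12.1% in control 9 (9.54% to 15.2%) to 29.4% in control 7 (24.6% to 34.6%). The intervals, like the detection floor, treat each read as a separate molecule. Reads copied by PCR are not, so the intervals can be too narrow even for counting error. They also leave out the splitting of reads between near-identical genes and the spread between animals.

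**Figure D5:**
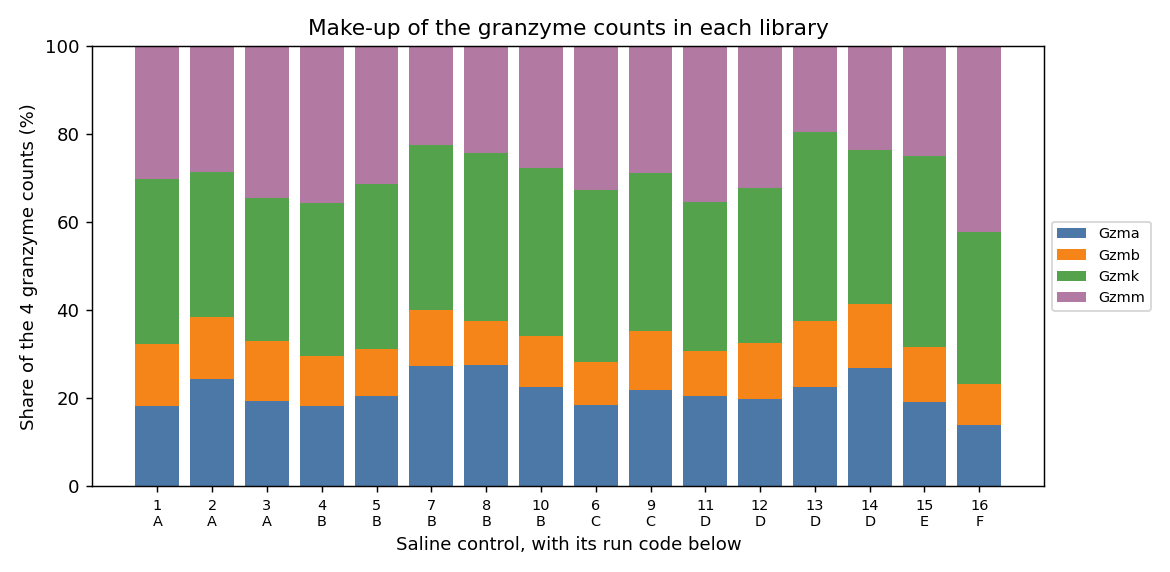
Share (%) of Gzma, Gzmb, Gzmk and Gzmm in their summed counts, 1 stacked bar per library, ordered by run code. The Gzmk band stays between 32.4% and 43.3%, and control 16 has the widest Gzmm band (42.3%).

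Runs with at least 3 libraries were compared to see whether the members changed between run codes, which cannot be told apart from repeats of the experiment. In an edgeR quasi-likelihood fit of 12952 genes over 12 libraries, no gene differed between runs A and B (0%, with 1755 genes at an unadjusted p under 0.05 and 563 called by DESeq2) or between A and D (0%, where 5.41% had an unadjusted p under 0.05 and DESeq2 called 14). Between B and D, 298 genes (2.3%) differed. None of the 10 members was called in any of the 3 comparisons, and none had an unadjusted p under 0.05. The largest change was that of Ncr3, 0.68 ± 0.47 on the log2 scale in run D over run B (edgeR adjusted p = 0.788), which became 1.14 without control 8 and 1.24 with total count scaling, without passing the threshold. Tbx21 changed by 0.51 ± 0.30 in the same comparison (edgeR adjusted p = 0.667) and Gzmb by -0.50 ± 0.40 in run B over run A (edgeR adjusted p = 0.612). Dividing by the total count moved the median change of all genes to -0.50 in run B over run A and to 0.53 in run D over run B, and again no member was called.

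The levels of the 4 granzymes overlapped between runs A, B and D. Gzma averaged 996.4 ± 370.9 (SD, n = 3) normalized counts in run A, 985.0 ± 445.5 (n = 5) in run B and 998.9 ± 633.0 (n = 4) in run D. The Gzmk share averaged 34.2% ± 2.72 in run A, 37.2% ± 1.39 in run B and 36.7% ± 4.12 in run D, and the exact permutation test over all 27720 assignments of these 12 libraries gave p = 0.388 (0.647 after adjustment over 2 shares, smallest possible p 3.6e-05). The Gzmb share ran from 13.66% to 14.22% in run A, 9.97% to 12.64% in run B and 10.37% to 15.1% in run D. The gap between runs A and B was picked from several shares and run pairs after viewing. No rate of such gaps over all genes was taken, and the second Gzmb entry is left out of the share. The shares of Gzma, Gzmb and Gzmm were not tested between runs. The Eomes share averaged 18.5% ± 5.49, 20.2% ± 5.45 and 16.9% ± 3.52, with an exact permutation p of 0.647.

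Other genes of the killing pathway were read from a list of 46, of which 42 were listed in every library and 36 were tested in the fits on cell levels. On the killer-cell lectin level 1 of the 36 rose, Klrc1, with a slope of 1.14 ± 0.14 (edgeR adjusted p = 0.000542), and none fell. On the granulocyte level 13 rose and 1 fell, where 16.0% of all genes tested rose and 12.2% fell. Among them was Srgn, the proteoglycan core that packs granule proteins and the list's most abundant transcript at 16295 ± 9012 (SD, n = 16) normalized counts, which rose by 0.56 ± 0.05 (edgeR adjusted p = 1.76e-07). Tyrobp, a signalling adaptor of activating receptors with a mean of 7400.3 ± 3413.7, rose by 0.48 ± 0.06 (edgeR adjusted p = 3.02e-06). On the T-cell receptor level 1 rose, the signalling adaptor Sh2d1a (0.55 ± 0.13, edgeR adjusted p = 0.0236), and 9 fell, Srgn among them (-1.30 ± 0.39, edgeR adjusted p = 0.037), where 5.61% of all genes tested rose and 7.66% fell. Ccl5, a chemokine stored in killer lymphocytes, averaged 5061.2 ± 1597.1 normalized counts and was called on none of the 3 levels. The list's median slope on the lectin level was 0.19, against 0.53 for the members and 0.04 for all genes tested.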

How the data were processed

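Whole-blood libraries of 16 saline controls were sequenced as stranded 51-base paired ends. The authors aligned reads to the Ensembl rat transcriptome of build rn5 with Bowtie 0.12.9 and deposited gene-level estimated counts made with RSEM 1.2.0, without normalization, which split reads shared by near-identical genes. Reads were base-called with CASAVA 1.8.2, per the labels. The study replaced outlying values before its own tests, and this was not done here. Genes were kept where all files listed them (18031), and estimated counts were rounded to whole numbers. Tests used edgeR 4.0.16 (TMM, filterByExpr, quasi-likelihood F-test, Benjamini-Hochberg, adjusted p under 0.05) in R 4.3.3, with DESeq2 1.42.0 as an alternative. Normalized counts are counts divided by DESeq2 size factors. The standard error of a log2 value is its size divided by the square root of F. Whether a GZMB entry counted under another identifier, Gzmbl2 and Gzmbl3 share reads with Gzmb was not resolved.

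On simulated counts with known slopes on the lectin level, 73.6% of genes with a slope of 1 and 100% of those with a slope of 2 were recovered. That fit held 10813 genes, with 8 false calls among those left unchanged. For run B against D, 19.6% of genes changed by 1 log2 unit and 87.1% of those changed by 2 were recovered. That fit held 11028 genes, with 6 false calls among those left unchanged. More genes were changed in the simulation than the 9 called on the lectin level in the real data. The adjustment depends on that number, so these recovery rates do not describe the real lectin fit. All libraries carry 1 label. Per the study's methods the experiment was repeated at different times, and the labels do not assign controls to a repeat, so run codes and repeats cannot be told apart and p-values measure the spread between these samples. Named genes were the members, the 3 genes most like each, listed pathway genes called on the lectin level or highest in mean, and the genes of each level. CD8 chains, Cd4, Cd5, Cd6, the pathway genes called elsewhere and Adamts14's place were added after their values were seen. The members and all gene lists were chosen with earlier results of these data known. Permutation tests of Prf1 and the fits without controls 14 and 16 were added after seeing the data. Motifs were searched with Python 3.11.15 in RefSeq promoters of GRCr8.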

Additional observations from a re-analysis of the deposited data

Results flagged for a closer look

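Within runs B and D, 3 values lay far from the others by Dixon's test, out of 30 comparisons in which chance alone would give 1.5. The Gzma level of control 14 in run D was 1940.4 normalized counts, against 744.8 in the nearest of the other 3 libraries. The Gzmk share of the granzyme counts was 42.77% in control 13 of run D, with the nearest library at 35.27%, and 34.84% in control 4 of run B, with the nearest at 37.31%.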

How the results depend on the processing

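No paired analysis was possible because all libraries belong to 1 group and each replicate number is used once. The share of tested genes that was called moved by more than 1.5 times under these alternatives. With DESeq2 it was 4.45% for run A against B, 0.111% for A against D, 5.87% for B against D, 20.2% for the T-cell receptor level and 0.311% for the lectin level. With total count scaling it was 0.0463% for B against D, 39.2% for the T-cell receptor level, 0.0275% for the lectin level and 10.3% for the granulocyte level. Without a low-count filter, which left more genes tested, it was 1.16% for B against D, 6.42% for the T-cell receptor level, 1.37% for the lectin level and 16.4% for the granulocyte level. With run code as a factor it was 0% for the lectin level. Without controls 2, 8 and 12 it was 0% on the T-cell receptor level and 15.0% on the granulocyte level, and without controls 14 and 16, an alternative added after seeing the data, 0.0272% on the lectin level. Leaving out 1 library at a time gave 0% to 3.93% for A against B (highest without control 4), 0% to 0.015% for A against D, 0.0155% to 5.44% for B against D (highest without control 4), 0.385% (without control 3) to 22.2% (without control 6) for the T-cell receptor level, 0.0364% (without control 16) to 0.101% for the lectin level and 17.4% (without control 8) to 29.2% for the granulocyte level. On the T-cell receptor level it was 0.854% without control 8, 4.3% without control 12 and 7.75% without control 10. The cause of these shifts was not tested. No member was called between runs or on the T-cell receptor level under any alternative tried.

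Among the members, the slope of Ncr1 on the T-cell receptor level turned to 0.059 with total count scaling. Without controls 14 and 16 the slopes on the lectin level turned to -0.17 for Ncr3 and -0.039 for Tbx21. Leaving out 1 library at a time, the Ncr3 slope on the lectin level ran from -0.0387 to 0.22, while those of Gzma (1.05 to 1.35), Gzmk (0.72 to 0.95) and Nkg7 (0.75 to 0.94) kept their direction. Gzma and Nkg7 stayed called in 11 and Gzmk in 8 of these 16 fits. Ncr3 was not tested without controls 2, 8 and 12. Neither share passed the threshold between runs in any alternative tried. Each member's mean moved by less than 1 SD under each scaling, but a mean over all libraries can hardly move when only the scaling changes. At 10 to 60 counts a library, depth limits Ncr3 the most.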
